A study of Mus musculus with 2 samples.

Results

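Toll-like receptors are the germline sensors with which cells of the immune system recognise microbial lipids, proteins and nucleic acids. Described here are 7 of them (Tlr1, Tlr2, Tlr3, Tlr4, Tlr6, Tlr7 and Tlr9), together with Unc93b1, the chaperone that carries the nucleic acid receptors to the endosome, and Myd88, the adaptor shared by most of the family. These 9 genes were chosen by name from the 31053 genes counted in each library. Each was followed across the lineages of the lymph node, as its level in CPM and as the share of cells in which it was seen. CPM are the gene's unique molecular identifiers (UMIs, tags that count each captured RNA molecule once), summed over the cells of a lineage and scaled to the total UMIs of those cells.

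The cells came from mediastinal lymph nodes, which drain the lung, of wild-type C57/B6J mice aged 5 to 13 weeks with ovalbumin-induced asthma. All mice were sensitised with 50 µg ovalbumin (OVA) in alum on days 0 and 7, challenged through the nose from day 14 to day 16, and used on day 17. 1 library came from OVA mice without butyrate and 1 from OVA mice given butyrate (C4), a short-chain fatty acid made by gut bacteria, and each held the pooled cells of 4 mice. The comparison asks whether the sensing genes of the node differ when butyrate is given. Neither library comes from mice without asthma, so both carry the effects of ovalbumin. With 1 library per condition there was no replicate and no test, and the 95% intervals (exact Poisson for CPM, exact binomial for shares and ratios) cover counting error only.

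The library without butyrate held 9681 cells and 59176459 UMIs, and the library with butyrate held 8932 cells and 58381292 UMIs. After cells of low quality and likely doublets were removed, 8774 and 8013 cells remained, with a median of 5075 and 5649 UMIs. The libraries shared 22 of these barcodes. Lineages were set from UMIs of single genes: Cd79a+ cells (Cd79a, a subunit of the B cell receptor), T cells with Cd3e and either Cd4 or Cd8a, other Cd3e+ cells, Lyz2+ cells (Lyz2, the lysozyme of myeloid cells) and Flt3+ cells (Flt3, a receptor kinase of dendritic cells). Of the cells without and with butyrate, 4138 and 3869 were Cd79a+, 962 and 851 Cd4+ T, 1459 and 1467 Cd8a+ T, and 1040 and 821 other Cd3e+. Only 29 and 20 cells were Lyz2+, and 13 and 26 were Flt3+. A further 1133 and 959 cells met no rule.

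The lineages were checked against genes that the rules did not use. The 7 B cell markers summed to 4806 and 5325 CPM in Cd79a+ cells and to between 38.4 and 51.4 CPM in the 3 Cd3e+ classes. The Lyz2+ cells carried monocyte and macrophage markers at 5178 and 3647 CPM, and neutrophil markers at 4532 CPM without and 30778 CPM with butyrate, so the Lyz2+ cells of the libraries were not alike in makeup. The Flt3+ cells carried dendritic markers at 2481 and 1451 CPM and plasmacytoid markers at 2624 and 3646 CPM. Their monocyte and macrophage markers summed to 1000 CPM without and 1609 CPM with butyrate, of which Ly6c2 alone gave 895 and 459 CPM. C1qb stood at 0 and 420 CPM, C1qa at 0 and 194 CPM, Itgam at 0 and 186 CPM and Adgre1 at 0 and 142 CPM. The Flt3+ cells of the libraries thus also differed in makeup.

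In the cell, Tlr2 pairs with Tlr1 or Tlr6 at the surface to sense bacterial lipopeptides, and Tlr4 with its partner Ly96 senses lipopolysaccharide. Tlr3, Tlr7 and Tlr9 sit in the endosome and sense double-stranded RNA, single-stranded RNA and unmethylated DNA. All of these except Tlr3 signal through Myd88 to kinases of the Irak family and on to NF-κB and interferon regulatory factors.

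On mm10, the build of the files, Tlr1 (ENSMUSG00000044827) lies at chr5:64924679-64933563 and Tlr6 (ENSMUSG00000051498) at chr5:64952031-64960097, both on the minus strand. These neighbours are close relatives in sequence, so reads could be lost or misassigned between them and their levels carry that uncertainty. Tlr7 (ENSMUSG00000044583) is X-linked, at chrX:167304929-167330558, minus strand. Unc93b1 (ENSMUSG00000036908) lies at chr19:3935186-3949340 and Tlr9 (ENSMUSG00000045322) at chr9:106222598-106226883, both on the plus strand. Myd88 (ENSMUSG00000032508) is at chr9:119335934-119341411, minus strand.

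The promoter sequences of Tlr9 and Myd88 are shown because these genes had opposite distributions over the lymphocytes, with Tlr9 nearly limited to Cd79a+ cells and Myd88 higher in T cells. RefSeq start sites on GRCm38.p6, the same assembly as mm10, were at hand for 6 of the 9 members. Each sequence is the 250 bases before the start, 5′ to 3′. In that of Tlr9 (chr9:106222348-106222597, plus strand) the capitals mark the octamer ATGCAAAT, the letters bound by the Oct factors of B cells and other cells, which begins at base -72. In that of Myd88 (chr9:119340019-119340268, minus strand) they mark a pair of GAAA runs 2 bases apart, the core of the element read by interferon regulatory factors, which begins at base -40. The RefSeq start used for Myd88 lies inside the gene span given above, so this window falls within that span.
Tlr9: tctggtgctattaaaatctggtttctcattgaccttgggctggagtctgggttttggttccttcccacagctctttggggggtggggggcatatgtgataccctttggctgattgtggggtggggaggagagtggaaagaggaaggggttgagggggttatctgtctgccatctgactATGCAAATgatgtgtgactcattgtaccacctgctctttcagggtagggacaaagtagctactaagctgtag
Myd88: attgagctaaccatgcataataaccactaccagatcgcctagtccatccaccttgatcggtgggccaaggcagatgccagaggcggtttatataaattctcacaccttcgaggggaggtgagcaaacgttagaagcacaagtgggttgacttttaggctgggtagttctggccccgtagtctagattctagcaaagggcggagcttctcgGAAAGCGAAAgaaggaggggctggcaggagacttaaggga
Both strands were searched, and the octamer stood in 1.6% and the paired GAAA in 2.98% of 32851 windows of this length. 1 of the 2 Tlr6 windows also held the paired GAAA, and no other member window held either motif. A match in a window is a description of its letters and not evidence of binding.

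In the lymphocytes, the endosomal arm of the family lay with the Cd79a+ cells. Unc93b1, Tlr7, Tlr9 and Tlr4 were higher in Cd79a+ cells than in T cells of both libraries, Tlr1 was about 2 times higher, and Myd88 went the other way. Because a 3′ count does not scale with the length of a gene in a known way, each gene was compared with itself across lineages and not with the other genes.

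**Figure D1:**
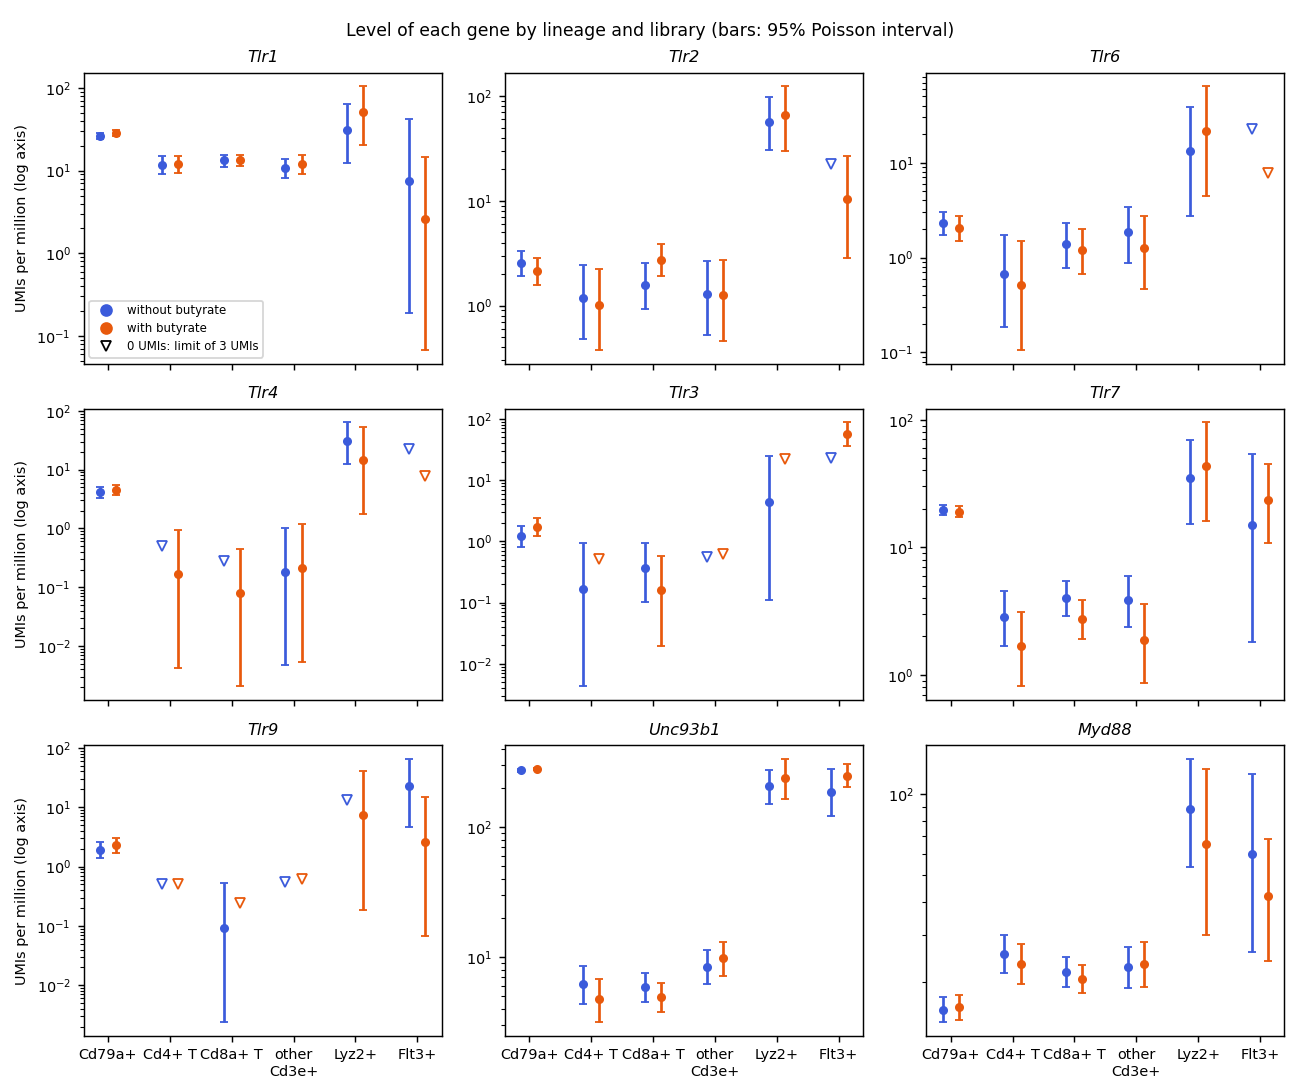
Level in CPM (log axis) of the 9 genes in 6 lineages, without (blue) and with butyrate (orange). Points carry 95% Poisson intervals, and open triangles mark lineages with 0 UMIs, drawn at the limit of 3 UMIs. Unc93b1 stands at 188 CPM or above in Cd79a+, Lyz2+ and Flt3+ cells and below 10 CPM in all 3 Cd3e+ classes, while Myd88 is lower in Cd79a+ cells than in any other lineage.

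Unc93b1 stood at 275 CPM (268 to 282) without and 280 CPM (273 to 287) with butyrate in Cd79a+ cells, where 69.8% and 72.6% of cells had a UMI. In Cd4+ T cells it stood at 6.23 and 4.74 CPM, in Cd8a+ T cells at 5.87 and 4.93 CPM, and in other Cd3e+ cells at 8.46 and 9.84 CPM. The Cd79a+ level was thus 46.9 times that of Cd8a+ T cells without butyrate (log2 5.55, 5.19 to 5.93) and 56.8 times with butyrate (log2 5.83, 5.46 to 6.22). The myeloid and dendritic classes lay near Cd79a+ cells, at 207 and 240 CPM in Lyz2+ cells and 188 and 249 CPM in Flt3+ cells. Without butyrate both were lower than Cd79a+ cells by ratios whose intervals ended at about 0 (log2 -0.41, -0.86 to 0.00, and -0.55, -1.18 to 0.01). A Cd79a+ cell held a mean of 1.46 and 1.52 Unc93b1 UMIs, with a median of 1 and a maximum of 16 and 12.

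Tlr7, the receptor for single-stranded RNA, stood at 19.6 CPM (17.8 to 21.5) and 19 CPM (17.2 to 20.9) in Cd79a+ cells. It was lower in every T cell class, at 2.86 and 1.69 CPM in Cd4+ T cells, 4.01 and 2.75 CPM in Cd8a+ T cells, and 3.86 and 1.88 CPM in other Cd3e+ cells. Cd79a+ cells exceeded Cd8a+ T cells 4.89-fold without butyrate (log2 2.29, 1.83 to 2.78) and 6.91-fold with it (log2 2.79, 2.28 to 3.34). The order from Lyz2+ cells (35.2 and 43.7 CPM, on 8 and 6 UMIs) to Cd79a+ and Flt3+ cells (15 and 23.6 CPM, on 2 and 9 UMIs) was within counting error in each library. Over both libraries Lyz2+ cells stood 1.99-fold above Cd79a+ cells (log2 0.99, 0.12 to 1.75, on 14 UMIs), an interval that takes UMIs as independent. These UMIs lay in 9 of 49 Lyz2+ cells. That share was 18.4% (8.76 to 32), beside 9.09% of Cd79a+ cells without and 8.58% with butyrate, so no difference is read from it.

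Tlr9, the sensor of unmethylated DNA, was sparse but sharply placed among the lymphocytes. It gave 42 and 49 UMIs in Cd79a+ cells, 1.91 and 2.33 CPM, and 1 and 0 UMIs in Cd8a+ T cells. In Cd4+ T cells it gave 0 UMIs in both libraries. The exact binomial upper bounds on the share were 0.383% of cells without and 0.433% with butyrate, against 1.01% and 1.19% of Cd79a+ cells. The log2 ratio of Cd79a+ over Cd4+ T cells had exact lower bounds of 1.56 without and 1.84 with butyrate. The Flt3+ cells gave 3 and 1 UMIs of Tlr9, or 22.6 and 2.62 CPM. Without butyrate this was 11.8-fold the Cd79a+ level (log2 3.56, 1.23 to 5.21). With butyrate the difference was within counting error (log2 0.17, -5.16 to 2.72), as it was over both libraries (log2 1.88, -0.03 to 3.29).

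Tlr4, the lipopolysaccharide receptor, was likewise near absent from T cells at this depth. It gave 91 and 96 UMIs in Cd79a+ cells (4.14 and 4.56 CPM) and 0 and 1 UMIs in Cd8a+ T cells. Without butyrate the log2 ratio of Cd79a+ over Cd8a+ T cells had an exact lower bound of 3.56. With butyrate the difference was 56.4-fold (log2 5.82, 3.30 to 11.14, on 1 UMI). The Lyz2+ cells stood above Cd79a+ cells without butyrate, at 30.8 CPM on 7 UMIs (log2 2.89, 1.54 to 3.99). With butyrate the 2 UMIs of 20 Lyz2+ cells left that difference within counting error, and Flt3+ cells gave 0 UMIs in both libraries.

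Tlr1, which pairs with Tlr2 for triacylated lipopeptides, was spread over B and T cells. It stood at 26.5 CPM (24.4 to 28.8) and 28.4 CPM (26.2 to 30.8) in Cd79a+ cells, at 11.8 and 12 CPM in Cd4+ T cells and at 13.3 and 13.4 CPM in Cd8a+ T cells. Cd79a+ cells exceeded Cd8a+ T cells 1.99-fold (log2 0.99, 0.73 to 1.27) and 2.12-fold (log2 1.08, 0.83 to 1.34), and the Cd4+ and Cd8a+ T classes did not differ beyond counting error. Lyz2+ cells lay at 30.8 and 51 CPM, on 7 UMIs in each library, which cannot be told from the Cd79a+ level.

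Tlr2 and Tlr6, the other lipopeptide receptors, were highest in Lyz2+ cells. Tlr2 stood there at 57.2 and 65.5 CPM (13 and 9 UMIs), 22.4-fold above Cd79a+ cells without butyrate (log2 4.49, 3.49 to 5.38) and 30.7-fold with it (log2 4.94, 3.72 to 5.99). Tlr6 stood there at 13.2 and 21.8 CPM on 3 UMIs in each library, 5.68-fold (log2 2.51, 0.18 to 4.14) and 10.7-fold (log2 3.42, 1.09 to 5.06) above Cd79a+ cells. In Cd79a+ cells both were scarce, at 2.55 and 2.14 CPM for Tlr2 and 2.32 and 2.04 CPM for Tlr6, and neither differed from Cd8a+ T cells beyond counting error in either library. Over both libraries Tlr6 in Cd79a+ cells exceeded Cd8a+ T cells 1.68-fold (log2 0.75, with a lower bound of 0.14), although at 2000 UMIs per cell the value without butyrate was -0.61 (-2.17 to 1.11). Tlr6 was higher in Cd79a+ than in Cd4+ T cells in each library (log2 1.79, 0.34 to 3.72, and 2.01, 0.36 to 4.34), and Tlr2 was so over both libraries (log2 1.10, 0.26 to 2.05).

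Tlr3, the double-stranded RNA receptor, stood at 1.23 and 1.71 CPM in Cd79a+ cells (27 and 36 UMIs) and gave at most 4 UMIs in any T cell class. The Flt3+ cells set it apart. They held 0 UMIs in the 13 cells without butyrate and 22 UMIs in the 26 cells with it, 57.7 CPM (36.2 to 87.4) and 33.8-fold the Cd79a+ level of that library (log2 5.08, 4.24 to 5.88). Of these 22 UMIs, 17 lay in 5 cells with Xcr1 or Clec9a and no Siglech, and 5 in 1 cell with Siglech. These genes are markers of kinds of dendritic cell. The part of the differing makeup of the Flt3+ cells in the difference between the libraries was not tested.

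Myd88, the adaptor, was ordered unlike the receptors. It was lowest in Cd79a+ cells, at 15.8 CPM (14.2 to 17.6) and 16.2 CPM (14.5 to 18). Cd4+ T cells stood at 25.6 and 23.5 CPM, Cd8a+ T cells at 21.9 and 20.6 CPM, and other Cd3e+ cells at 22.8 and 23.4 CPM. The Cd79a+ level was 0.722 times that of Cd8a+ T cells without butyrate (log2 -0.47, -0.71 to -0.23) and 0.786 times with it (log2 -0.35, -0.59 to -0.11). With cells thinned to 2000 UMIs these were -0.43 (-0.85 to 0.01) and -0.28 (-0.72 to 0.16), both with intervals that include 0. Lyz2+ cells held 88 and 65.5 CPM, 5.57-fold and 4.05-fold the Cd79a+ level, and Flt3+ cells held 60.2 and 42 CPM, 3.81-fold and 2.59-fold that level, with all 4 intervals above equality.

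In droplet data, RNA that floats free adds UMIs of a gene to cells that do not express it, so the T cell levels were read against genes that T cells lack. Across 5 B cell genes (Ms4a1, Pax5, Fcer2a, Cd22 and Ebf1), Cd8a+ T cells held between 0.427% and 1.98% of the Cd79a+ level without butyrate and between 0.271% and 1.28% with it, with Cd22, an inhibitory receptor of B cells, at the upper end in both. Unc93b1 stood at 2.13% without butyrate, with an interval (1.64 to 2.73) that includes the Cd22 value, and at 1.76% with butyrate, with an interval (1.35 to 2.27) just above it. No expression in T cells is read from values this close to the background. Tlr7 at 20.5% and 14.5%, Tlr1 at 50.2% and 47.2%, and Myd88 at 139% and 127% were far above it. The median depths behind these values were 6750 and 7808 UMIs for Cd8a+ T cells and 4394 and 4604 UMIs for Cd79a+ cells.

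**Figure D2:**
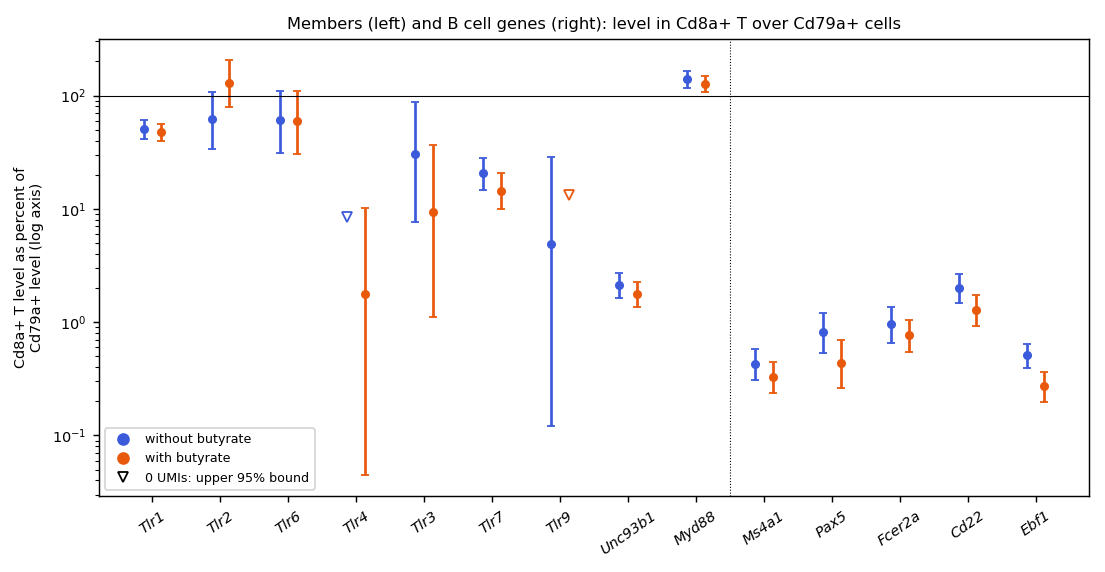
Level in Cd8a+ T cells as a percent of the level in Cd79a+ cells (log axis) for the 9 members, left of the dotted line, and 5 B cell genes, right of it, without (blue) and with butyrate (orange), with 95% intervals and open triangles at the upper bound where T cells had 0 UMIs. Unc93b1 lies near the B cell genes, while Tlr7, Tlr1 and Myd88 lie at 14.5% or above.

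Within the Cd79a+ cells, most cells with a receptor UMI showed 1 receptor at this depth. At least 1 of the 7 receptors was seen in 25% of cells without (23.7 to 26.4) and 25.8% with butyrate (24.4 to 27.2). A surface receptor was seen in 16.6% and 17.7%, an endosomal one in 10.6% and 10.2%, and both kinds in 2.13% and 2.15%, where independent detection of the observed shares would give 1.75% and 1.81%. 2 or more receptors were seen in 2.9% and 3.13% of cells. Cells were not brought to equal depth for these shares. At an equal depth of 2000 UMIs, Unc93b1 was seen in 43.7% (35.8 to 51.8) of the cells with Tlr7 and 42.4% of those without it in the library without butyrate. In the library with butyrate these shares were 51.7% (43.3 to 60.1) and 42.4%. For Tlr1, Unc93b1 was seen in 39.3% (32.4 to 46.5) of the cells with it and 42.6% of those without it in the library without butyrate, and in 35.1% (28.6 to 42) and 43.1% with butyrate.

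The B lineage was not uniform. In 50 plasma cells of both libraries (39 and 11, set by Jchain, which joins antibody chains, with Sdc1 or Tnfrsf17, a pair of plasma cell surface proteins), Unc93b1 stood at 103 CPM against 286 CPM in Cd79a+ cells that were neither plasma nor cycling, 0.362 times their level (log2 -1.47, -1.71 to -1.24). Tlr1 stood at 0.0942 times (log2 -3.41, -5.29 to -2.05) and Myd88 at 0.248 times (log2 -2.01, -3.46 to -0.88) the level of those cells. Tlr9 gave 0 UMIs in plasma cells, with an upper bound of 2.51 CPM. The other Cd79a+ cells stood at 2.05 CPM, so these counts show no difference in Tlr9. Tlr7 was at 0.267 times without butyrate (log2 -1.91, -3.36 to -0.77, on 6 UMIs) and 1.02 times with it (log2 0.03, -1.19 to 1.03, on 8 UMIs), counts too few to compare the libraries. Plasma cells had a median of 26519 UMIs against 4473. Ribosomal, mitochondrial and immunoglobulin genes together made up 52.7% of their UMIs, against 40.7% in the other Cd79a+ cells. Per cell, Unc93b1 was higher in plasma cells, at 3.04 UMIs (2.58 to 3.56) against 1.46 UMIs (1.43 to 1.49), whereas Tlr1 was at 0.08 UMIs (0.0218 to 0.205) against 0.148. Over both libraries Tlr7 was also higher per cell, at 0.28 UMIs (0.153 to 0.47) against 0.103. Without butyrate it was within counting error, at 0.154 UMIs (0.0565 to 0.335) against 0.104. With butyrate it was 0.727 UMIs (0.314 to 1.43, on 8 UMIs in 11 cells) against 0.103. Myd88 was not lower per cell, at 0.12 UMIs (0.044 to 0.261) against 0.0839. With ribosomal, mitochondrial and immunoglobulin genes taken out of the totals, Unc93b1 stood at 218 against 482 CPM and Tlr1 at 5.75 against 48.7 CPM. On those totals Myd88 stood at 8.62 against 27.7 CPM and Tlr7 at 20.1 against 34.1 CPM.

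Cycling Cd79a+ cells, 404 in all with UMIs of Mki67 or Top2a (markers of dividing cells), held Tlr7 at 12 CPM, 0.594 times the other Cd79a+ cells (log2 -0.75, -1.26 to -0.28). Tlr1 was at 0.723 times (log2 -0.47, -0.85 to -0.11) and Unc93b1 at 0.843 times (log2 -0.25, -0.35 to -0.14). These values are over both libraries. Without butyrate the log2 ratios of Tlr7, Tlr1 and Unc93b1 were -0.79 (-1.47 to -0.19), -0.68 (-1.22 to -0.18) and -0.31 (-0.46 to -0.17). With butyrate they were -0.71 (-1.57 to 0.03), -0.20 (-0.76 to 0.32) and -0.16 (-0.32 to 0.01), all within counting error. Tlr9 was at 1.86 times on 12 UMIs (log2 0.89, -0.12 to 1.78) and Myd88 at 0.964 times (log2 -0.05, -0.50 to 0.36), both within counting error.

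The 39 Flt3+ cells were grouped by markers of kinds of dendritic cell, each group with few cells. The order was Siglech, then Xcr1 or Clec9a, then Ccr7, and a cell stayed in the first group it met. In 10 cells with Siglech, a plasmacytoid marker (2 without and 8 with butyrate), Tlr7 gave 11 UMIs in 7 cells (90.4 CPM, 45.1 to 162) and Unc93b1 was seen in 10 of 10 cells at 509 CPM (391 to 653). In 5 cells with Xcr1 or Clec9a, markers of cross-presenting dendritic cells, Tlr3 gave 17 UMIs in 5 of 5 cells (154 CPM, 89.9 to 247). Tlr7 gave 0 UMIs there, with an upper bound of 33.5 CPM. All 5 of these cells were in the library with butyrate. Clec9a stood at 15 CPM in the Flt3+ cells without butyrate, so the cells with Clec9a in that library were among the Siglech+ cells. In 22 cells with Ccr7, the homing receptor of migratory dendritic cells, Tlr3 and Tlr7 gave 0 UMIs and Unc93b1 stood at 92 CPM (58.9 to 137). Tlr9 gave 3 UMIs in these cells (11.5 CPM, 2.37 to 33.6) and 1 in the Siglech+ cells (8.22 CPM, 0.208 to 45.8). The remaining 5 UMIs of Tlr3 were in a single Siglech+ cell, or 41.1 CPM (13.3 to 95.9) over the 10 Siglech+ cells. 40 cells with Ncr1, a receptor of natural killer cells, gave 0 UMIs of all receptors but Tlr4, which gave 1, and held Myd88 at 37.2 CPM (17.8 to 68.4). Each receptor at 0 UMIs had an upper bound of 13.7 CPM, above its level in every T cell class. These zeros thus show no difference from T cells. Among Cd4+ T cells, the 162 with Foxp3, the regulatory T cell factor, did not differ from the rest in Myd88 (24.1 against 24.6 CPM) or Tlr1 (13.3 against 11.7 CPM) beyond counting error.

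Between the libraries, Unc93b1, Tlr7, Myd88 and Tlr1 differed by at most 0.10 on the log2 scale in Cd79a+ cells. Of the 6 members with at least 100 UMIs over both libraries, 0 were past 1.5-fold in either direction, where 2.65% of all 9444 genes with that many UMIs were. Unc93b1 gave a log2 ratio with over without butyrate of 0.02 (-0.03 to 0.08), so counting error left room for little more than 0.08 in either direction. Tlr7 gave -0.04 (-0.24 to 0.16), Myd88 0.03 (-0.18 to 0.25) and Tlr1 0.10 (-0.07 to 0.27). The sparser genes were less well bounded: Tlr4 gave 0.14 (-0.29 to 0.57), Tlr2 -0.26 (-0.85 to 0.34), Tlr6 -0.19 (-0.81 to 0.43), Tlr9 0.28 (-0.34 to 0.91) and Tlr3 0.48, a 1.39-fold difference whose interval also reached below 0, to -0.29. An interval that includes 0 does not show that the libraries were alike. At this depth the intervals left room for a 1.5-fold fall in Tlr2 and Tlr6 and a 1.5-fold rise in Tlr3 and Tlr9.

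**Figure D3:**
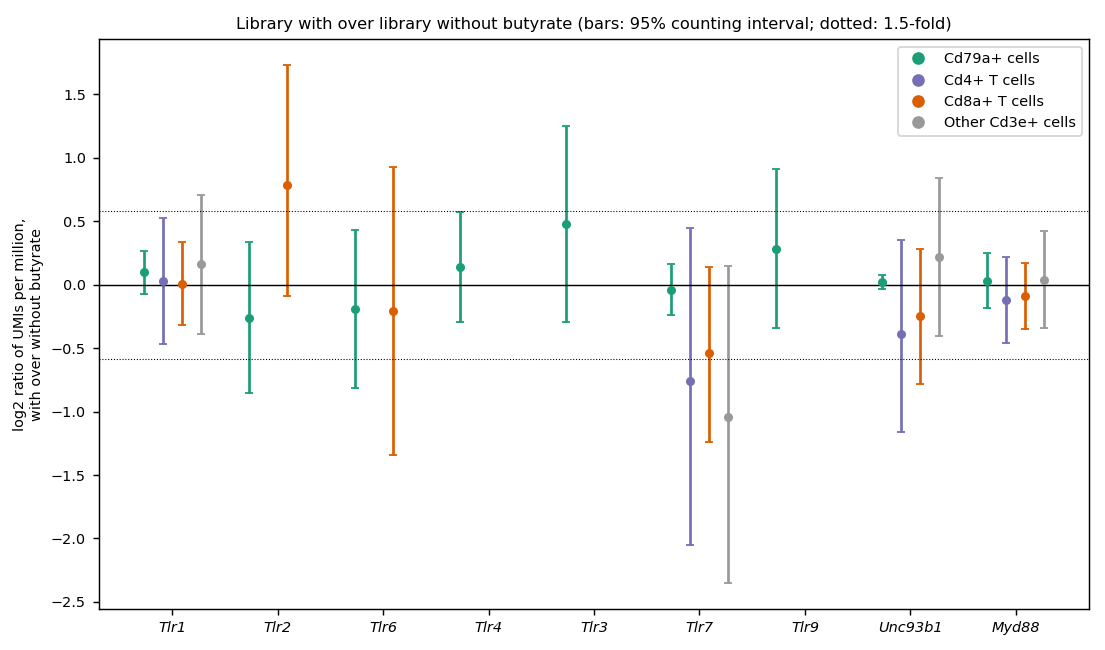
Log2 ratio of CPM in the library with over the library without butyrate, for the 9 members in Cd79a+, Cd4+ T, Cd8a+ T and other Cd3e+ cells, given where both libraries together hold at least 20 UMIs. Bars are 95% counting intervals and dotted lines mark 1.5-fold. Every interval includes 0, and that of Unc93b1 in Cd79a+ cells is the narrowest.

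In T cells, 0 of 2 members tested in Cd4+ and 0 of 3 in Cd8a+ cells were past 1.5-fold, where 2.26% of 7308 and 1.61% of 8298 genes were. Myd88 gave log2 ratios of -0.12 (-0.46 to 0.22) and -0.09 (-0.35 to 0.17) in these classes, and Tlr1 gave 0.03 (-0.47 to 0.53) and 0.01 (-0.32 to 0.34). Tlr7 was lower with butyrate in each of the 3 Cd3e+ classes without passing counting error in any, at -0.76 (-2.05 to 0.45) in Cd4+, -0.54 (-1.24 to 0.14) in Cd8a+ and -1.04 (-2.35 to 0.15) in other Cd3e+ cells. With the 3 classes summed, a sum chosen after these values were seen, Tlr7 gave 81 UMIs without and 53 with butyrate, or 3.66 and 2.3 CPM (log2 -0.67, -1.20 to -0.16). Tlr2 in Cd8a+ T cells gave 17 and 34 UMIs, a log2 ratio of 0.79 (-0.09 to 1.73).

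Over all cells, 1 of 9 members was past 1.5-fold, where 3.41% of 11086 genes were. This was Tlr3, which gave 37 UMIs in the OVA library and 65 in the C4 library (log2 0.82, 0.22 to 1.45). Among the 1001 genes with UMI counts within 2-fold of its 102, 16.4% were past the fold. Without the Flt3+ cells, a choice made after its values were seen, it gave 37 and 43 UMIs and 0.23 (-0.43 to 0.91). The library with butyrate held 26 of the 39 Flt3+ cells and all 5 with Xcr1 or Clec9a and no Siglech. The number of such cells captured and the Tlr3 level over all cells thus cannot be told apart.

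Tlr7 also varied inside the Cd79a+ cells of each library. An interferon-response list of 18 genes, chosen with earlier results of these data known, was lower with butyrate in the lymphocytes. Its median log2 ratio was -0.74 in Cd79a+ cells (16 of 17 genes tested were below 0), -0.97 in Cd4+ T cells (14 of 14) and -0.83 in Cd8a+ T cells (17 of 17). Medians over all genes tested were 0.05, 0.00 and 0.01. Given that choice, the counts of this list are a description. Cd79a+ cells were thinned to 2000 UMIs and split at 5 UMIs of this list, which put 218 cells without and 110 with butyrate in the upper class. In the library without butyrate, Tlr7 stood at 57.3 CPM (25 UMIs) in the upper and 18.5 CPM in the lower class, a 3.11-fold difference (log2 1.63, 0.96 to 2.25). In the library with butyrate it stood at 81.8 CPM (18 UMIs) and 18.3 CPM, a 4.46-fold difference (log2 2.16, 1.36 to 2.87). T cells split in the same way gave few Tlr7 UMIs. Without butyrate Tlr7 stood at 14 CPM (4.56 to 32.8, on 5 UMIs) in the upper and 1.28 CPM (0.155 to 4.63) in the lower class of Cd4+ T cells, and at 10.6 CPM (3.9 to 23.2, on 6 UMIs) and 1.7 CPM (0.463 to 4.35) in those of Cd8a+ T cells. With butyrate the upper classes held 2 and 1 UMIs, with intervals that overlap those of the lower classes.

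Unc93b1, Tlr1 and Myd88 did not differ between the same classes beyond counting error. Unc93b1 differed 1.18-fold (log2 0.24, -0.01 to 0.48) and 1.22-fold (log2 0.29, -0.05 to 0.62), and Ms4a1, a B cell membrane protein outside the pathway, 1.09-fold and 1.1-fold. Tlr1 gave log2 differences of 0.00 (-1.02 to 0.87) and 0.20 (-1.13 to 1.27), and Myd88 of -0.12 (-1.46 to 0.96) and -0.43 (-2.72 to 1.15), both on few UMIs. Tlr3 stood at 22.7 CPM (7.38 to 53, on 5 UMIs) in the upper and 1.07 CPM (0.462 to 2.11) in the lower class with butyrate, and at 2.29 CPM (on 1 UMI) and 1.16 CPM without it. Tlr2, Tlr6 and Tlr9 gave 0 UMIs in the upper class of both libraries, with upper bounds of 8.46 and 16.8 CPM. Within the lower class Tlr7 did not differ between the libraries (log2 -0.01, -0.36 to 0.34), and within the upper class the ratio was 0.51 (-0.45 to 1.44). The list does not include Tlr7, and the classes are ranges of a score rather than cell types.

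**Figure D4:**
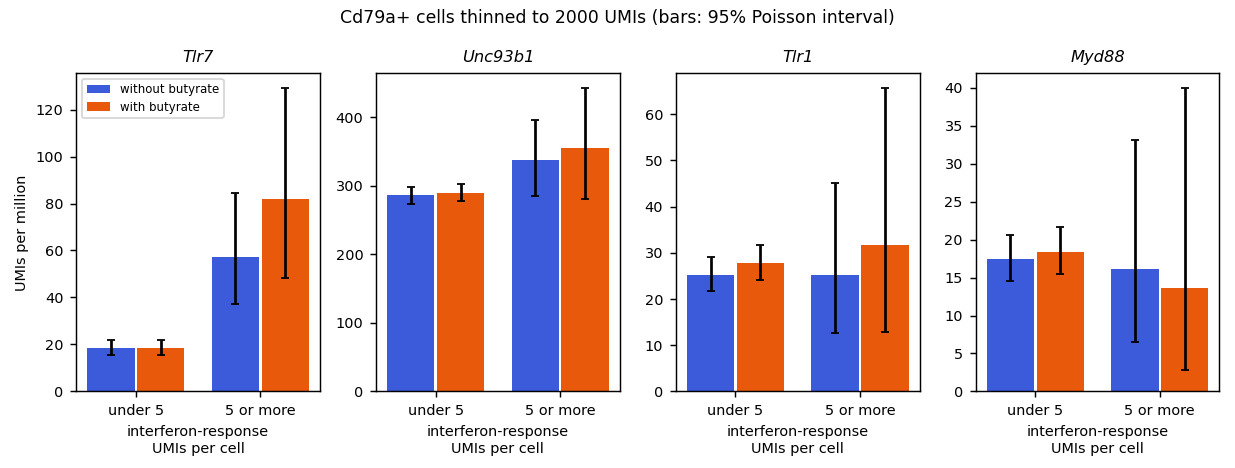
Level in CPM of Tlr7, Unc93b1, Tlr1 and Myd88 in Cd79a+ cells thinned to 2000 UMIs, with under 5 or with 5 or more UMIs of the interferon-response list, without (blue) and with butyrate (orange). Bars start at 0 and carry 95% Poisson intervals. Tlr7 is higher in the upper class of both libraries (57.3 against 18.5 and 81.8 against 18.3 CPM), while the intervals of the other 3 genes overlap between classes.

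The wider pathway was given by 50 further genes in 7 lists. In Cd79a+ cells 40 of them could be compared, of which 0 were past 1.5-fold higher and 2 lower with butyrate, with a median log2 ratio of 0.07 beside 0.05 over all genes tested. Of all 9444 genes 2.65% were past it in either direction, 56 higher and 194 lower. The 2 were Irf7, the interferon regulatory factor downstream of Tlr7 and Tlr9, at 37.8 and 23.6 CPM (log2 -0.68, -0.84 to -0.52), and Hsp90b1, the chaperone that folds the receptors, at 580 and 380 CPM (log2 -0.61, -0.65 to -0.57). Irf7 is also a member of the interferon-response list. Without plasma and cycling cells, an alternative added after seeing the data, Hsp90b1 stood at 313 and 326 CPM (log2 0.06, 0.00 to 0.11) and Irf7 at 39.6 and 23.7 CPM (log2 -0.74, -0.91 to -0.57). Plasma cell markers summed to 969 and 322 CPM in the Cd79a+ cells of the libraries.

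**Figure D5:**
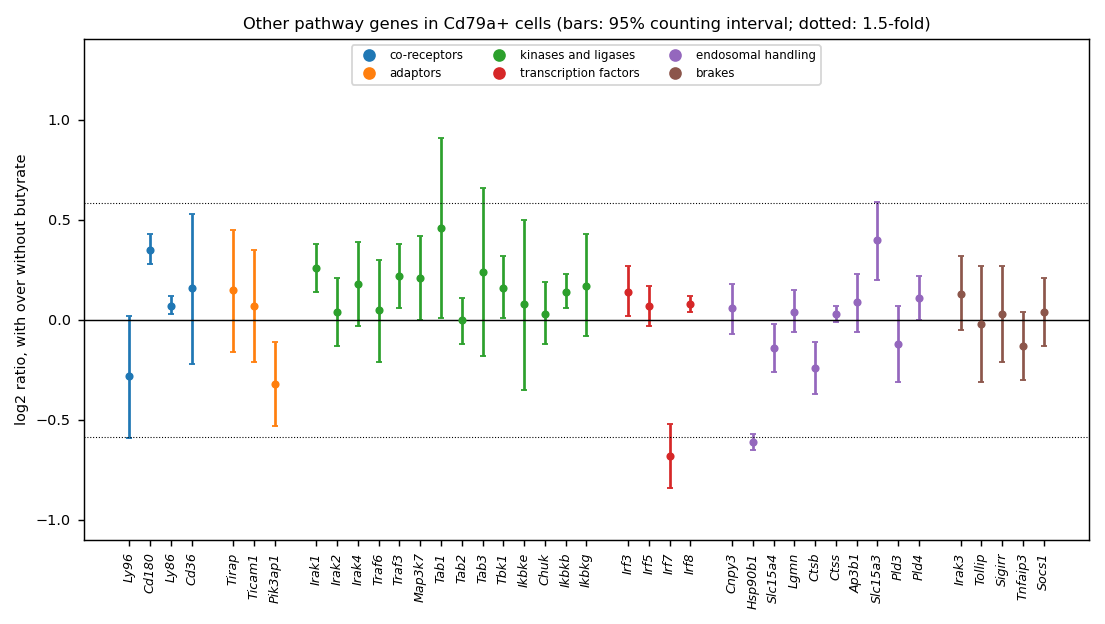
Log2 ratio with over without butyrate in Cd79a+ cells for the 40 pathway genes with at least 100 UMIs, coloured by list, with 95% counting intervals and dotted lines at 1.5-fold. Irf7 and Hsp90b1 lie below the lower line, and the others lie between the lines.

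Of the co-receptors, Cd180 and Ly86, which form a complex related to Tlr4 and Ly96 on B cells, stood at 134 and 172 CPM (log2 0.35, 0.28 to 0.43) and at 352 and 370 CPM (log2 0.07, 0.03 to 0.12) in Cd79a+ cells. Ly96, the partner of Tlr4, was at 9.24 and 7.6 CPM (log2 -0.28, -0.59 to 0.02), and Cd36, a scavenger receptor that aids Tlr2 and Tlr6, was at 5.33 and 5.93 CPM. Cd14, which hands lipopolysaccharide to Tlr4, gave 0 and 3 UMIs in Cd79a+ cells, so these cells carried Tlr4 and Ly96 with hardly any Cd14 at this depth. Lbp, the lipopolysaccharide binding protein, gave 2 and 0 UMIs there. Cd14 was instead found in Lyz2+ cells at 119 and 102 CPM. In Flt3+ cells it gave 1 and 46 UMIs, beside C1qb at 0 and 420 CPM in the same cells, and the part of these macrophage markers in the Cd14 values was not tested.

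The 14 kinases and ligases had 14 genes tested in Cd79a+ cells and a median of 0.17, with Ikbkb, a kinase that frees NF-κB, at 103 and 114 CPM and Irak1, which binds the Myd88 complex, at 48.1 and 57.7 CPM (log2 0.26, 0.14 to 0.38). Among 5 adaptors, Ticam1, the Tlr3 adaptor, gave 9.65 and 10.1 CPM and Pik3ap1, which links receptors to phosphoinositide signalling, 19.6 and 15.7 CPM (log2 -0.32, -0.53 to -0.11). Of 10 genes of endosomal handling, Ctss, a protease that processes the endosomal receptors, stood at 461 and 472 CPM (log2 0.03, -0.01 to 0.07). Irf8, a factor of B and dendritic cells, stood at 418 and 442 CPM, and of 6 brakes on the pathway Tnfaip3, a ubiquitin-editing enzyme, was at 28 and 25.6 CPM.

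In Cd4+ T cells 3 of 25 pathway genes compared were past 1.5-fold lower and 0 higher, namely Irf7 (67.9 and 35.1 CPM, log2 -0.95), Irf8 (14.8 and 9.32 CPM, log2 -0.67) and Tnfaip3 (161 and 102 CPM, log2 -0.65), where 2.26% of 7308 genes were past it in either direction, 49 higher and 116 lower. In Cd8a+ T cells it was 1 of 27, Irf7 at 86.2 and 37.8 CPM (log2 -1.19), where 1.61% of 8298 genes were past it, 49 higher and 85 lower. The medians of these lists were -0.01 and -0.03. Over all cells 44 could be compared, with 1 higher, Cd14 at 36 and 100 UMIs (log2 1.48), and 2 lower, Irf7 (63.6 and 31.8 CPM) and Lbp (64 and 36 UMIs, log2 -0.82), where 3.41% of 11086 genes were past it, 134 higher and 244 lower. Without Flt3+ cells Cd14 gave 35 and 54 UMIs, a log2 ratio of 0.64 (0.00 to 1.30).

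Among the other receptors of the family, Tlr13, a mouse sensor of bacterial ribosomal RNA, was found in Lyz2+ cells at 61.6 and 72.8 CPM and gave 2 UMIs in the Cd79a+ cells of each library. Tlr12, a receptor for a protein of protozoan parasites, stood at 6.06 and 6.38 CPM in Cd8a+ T cells (65 and 79 UMIs) and at 0.546 and 0.57 CPM in Cd79a+ cells. Tlr11, its partner, gave 1 and 7 UMIs in Flt3+ cells. Tlr5 and Tlr8 gave at most 4 UMIs over all cells of either library.

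The genes most like each member were ranked by Pearson correlation of log2(CPM + 10) over 12 profiles, the 6 lineages in 2 libraries, among 10116 genes. Profiles of the small lineages share their few cells, so these values are descriptions. Unc93b1 was most like Ly86 (r = 0.994), Cd40, the receptor for T cell help (0.993), and Napsa, an aspartic protease (0.986). Among the genes most like Tlr7 were Bnip3 and Tpd52 (0.988 each), and Tlr2 was most like Lilr4b (0.997), Tgfbi and Hp. Myd88 was most like Cndp2 (0.991), Anxa5 and Dnmt3a, and Tlr6 most like S100a9 and S100a8, a pair of neutrophil proteins (0.983 each), and Ccl12. Tlr1 was most like Kdm2a (0.960), Dusp6 and Prrc1, Tlr4 most like Adam17 (0.976), Cd93 and Tbc1d20, Tlr3 most like Gcsam (0.979), Ppt1 and Vps52, and Tlr9 most like Gphn (0.972), Usf1 and Rtca.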

How the data were processed

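Single-cell RNA was measured with 10x 3′ chemistry in 2 libraries, each of 4 pooled mice. The authors ran Cell Ranger 6.0.1 on mm10 and deposited its raw UMI counts, which are not normalized. The members and gene lists were chosen with earlier results of these data known. Cells were dropped where mitochondrial UMIs exceeded 10% or fewer than 200 genes were seen, 186 without and 327 with butyrate. Likely doublets, 721 and 592 cells, were those scored highest by Scrublet in scanpy 1.11.5, taking 0.8% for each 1000 cells. Lineages were exclusive: Cd79a, Cd3e or Flt3 needed 1 UMI and Lyz2 3 UMIs. Cells with markers of 2 lineages were left out, except Flt3+ cells with Lyz2 and Cd3e+ cells with Flt3, which stayed in the Cd3e+ classes. UMIs were summed per lineage and library, scaled by all UMIs of those cells, and compared as log2 ratios with exact conditional intervals at 95%, for genes with at least 20 UMIs between libraries. Genes with at least 100 UMIs were counted past 1.5-fold, a rule of size and no test. Named were the 9 members, up to 3 of their most alike genes, the co-receptors, pathway genes past 1.5-fold and abundant genes of each list. Thinning to 2000 UMIs left out 101 and 57 cells. In the figure of levels, lineages with 0 UMIs were drawn at a limit of 3 counts. Ratios were checked on simulated Poisson counts, the model behind the intervals, without variation between cells or mice. That check covers the calculation only. Versions were scipy 1.17.1, numpy 2.4.6, Python 3.11.15 and pandas 2.3.3. Tried as alternatives were other doublet, mitochondrial and gene filters, stricter markers, thinning, totals without ribosomal, mitochondrial and immunoglobulin genes, and other minimums, folds and pseudocounts. Some genes are not reported here.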

Additional observations from a re-analysis of the deposited data

How the results depend on the processing

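Of 201 alternative values of 37 log2 ratios, 192 lay inside the 95% interval of the ratio as reported, 8 moved out of it and 1 reversed. At 2000 UMIs per cell, Tlr6 in Cd79a+ over Cd8a+ T cells without butyrate reversed to -0.61, Tlr1 in that contrast was 0.71, Unc93b1 in Cd79a+ over Cd8a+ T cells with butyrate was 6.57, and Tlr6 with over without butyrate in Cd79a+ cells was 0.80. Tlr1 with over without butyrate was -0.77 in Cd4+ and -0.37 in Cd8a+ T cells, both with intervals that include 0, and Unc93b1 in Cd8a+ T cells was -1.30 (-2.60 to -0.12). With markers at 2 UMIs, Tlr7 in Cd4+ T cells was -3.42 (-8.88 to -0.57) and Myd88 -0.55 (-1.09 to -0.02). The cause was not tested. The split of Cd79a+ cells at 3 or 8 UMIs of the interferon-response list, added after seeing the data, gave Tlr7 ratios of 1.33 and 2.02 without and 2.05 and 2.60 with butyrate.

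The number of genes past the fold follows its rule. With at least 50 UMIs, at least 200 UMIs, a smaller fold, and a pseudocount of 10 CPM it was 440, 134, 947 and 44 in Cd79a+ cells, 400, 74, 930 and 40 in Cd4+ T cells, 306, 66, 812 and 28 in Cd8a+ T cells, and 625, 215, 1097 and 46 over all cells. Members past the fold were 1 in Cd8a+ T cells with at least 50 UMIs (Tlr2), beside 306 genes. They were 0 over all cells with at least 200 UMIs or the pseudocount, beside 215 and 46 genes. The minimums also change how many genes are tested, which is not given here, so no result is read from these member counts. No paired analysis was possible because each condition has 1 library. Depth limits Tlr2, Tlr3, Tlr6 and Tlr9 above all, with at most 56 UMIs per library in Cd79a+ cells.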
